A study of Mus musculus with 108 samples.

Results

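Each of 22 single mouse oocytes was profiled in 2 ways, by a file of read counts along the ribosomal RNA (rRNA) precursor and by a RiboMinus library, which covers other RNA whether or not it carries a poly(A) tail. The 2 files of an oocyte were matched by the stage, genotype, female number and oocyte number in their titles. The 22 matched oocytes use 44 of the 108 samples of the series. Exosc10 was deleted in the oocytes of some females (conditional knockout, cKO) and the others were controls. Oocytes were taken at the germinal vesicle stage (GV, fully grown and before meiotic resumption, cultured in M2 medium) or at metaphase II (MII, eggs dissected from the oviduct). The labels name no Cre driver, no control genotype, no strain and no age. At GV there were 7 cKO oocytes, 3 from female V1126 and 4 from female V1131, and 8 control oocytes, 4 each from females V1132 and V1133. At MII there were 4 cKO oocytes from females V1166 and V1167 and 3 control oocytes, all from female V1145. An oocyte is written below as its female and its number, for example V1126_3.

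Ribosomes are built from a long precursor transcript made by RNA polymerase I in the nucleolus. Its 5′ external transcribed spacer (5′ETS), 18S, internal transcribed spacer 1 (ITS1), 5.8S, ITS2, 28S and 3′ETS follow each other, and the spacers are cut off and degraded while the mature 18S, 5.8S and 28S are kept. EXOSC10 (RRP6 in yeast) is the distributive 3′-to-5′ exonuclease of the nuclear RNA exosome, which removes excised spacer fragments and trims precursor ends. A growing oocyte makes rRNA for storage, and the fully grown oocyte at GV has largely stopped transcription.

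The measure followed here is the log2 ratio of 5′ETS plus ITS1 counts to 18S counts in the rRNA file of an oocyte, called the precursor ratio below. A value of -5 means more spacer reads per 18S read than a value of -12. The 3 deposited segments are 4007, 1000 and 1870 bases long, and no length correction was made. The ratio rests on 22 to 13173 spacer counts per oocyte, so low ratios are the less precise ones.

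The Exosc10 transcript followed the labels in all 22 oocytes. As CPM, RiboMinus counts scaled to a common library size by edgeR's TMM factors, it stood between 0.791 and 8.15 in the 7 knockouts at GV and between 94.2 and 161 in the 8 controls. At MII it was at 0.469 to 3.64 in 4 cKO oocytes and 83.8 to 106 in 3 controls. Oocyte markers (23 genes, among them zona pellucida and egg coat genes) summed to 13128 to 20714 CPM per oocyte. Markers of granulosa and other somatic cells (24 genes) summed to 166 to 220 CPM in GV controls and 184 to 289 in GV cKO oocytes, with Hbb-bs at 0 in every GV oocyte and Ptx3 at 0 in every GV cKO oocyte. Some of these markers were highest in V1126_2. Amh was at 27.3 CPM there, at 0 to 0.732 in the other GV cKO oocytes and at 0 to 6.21 in GV controls. Gja1 was at 18.7 CPM there, against at most 4.76 and 6.68, and Inha at 14.1, against at most 2.998 and 3.835. Others did not stand out, such as Pecam1, at 59.9 CPM there and 56.3 to 110 in the other GV cKO oocytes. Whether RNA of somatic cells entered this library was not tested. Gene counts totalled 12319658 to 23414673 per GV library and 16220993 to 62675760 per MII library, and rRNA counts totalled 482609 to 1473517 per oocyte.

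The precursor ratio at GV was higher in cKO than in control oocytes, and it differed widely among the 7 knockouts, mainly between the 3 sisters of female V1126. The 4 oocytes of cKO female V1131 were nearly identical, at -4.63, -4.75, -4.58 and -4.61. The 3 oocytes of cKO female V1126 were at -8.08 (V1126_2), -10.90 (V1126_3) and -5.55 (V1126_4). The 8 controls lay between -13.40 and -8.83, with a median of -11.42. V1126_3 therefore sat inside the control range, and V1126_2 lay just above the highest control. Per 1000 counts of 18S, the spacer counts were 37.2 to 41.9 in V1131, 21.4 in V1126_4, 3.70 in V1126_2, 0.522 in V1126_3 and 0.0928 to 2.20 in the controls. V1126_3 had 122 spacer counts against 233833 of 18S, and its 95% Wilson interval of the log2 ratio, from -11.16 to -10.65, covers counting error only.

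The mean ratio was -6.16 ± 2.44 (SD, n = 7 oocytes) in cKO and -11.23 ± 1.61 (SD, n = 8) in controls, a difference of 5.07 on the log2 scale (two-sided exact permutation test over oocytes, p = 0.00186). With all spacers over all mature rRNA as the ratio it was 2.50 (exact permutation p = 0.00435). Oocytes of a female share their mother and are not independent. The female means were -8.18 and -4.64 in cKO and -11.74 and -10.71 in controls, which do not overlap (exact permutation p = 0.333, the smallest that 2 females against 2 can give). Without V1126_3 the difference over oocytes was 5.86 (exact permutation p = 0.000666), and with V1126 alone standing for the knockout it was 3.05 (exact permutation p = 0.0727). Controls also differed widely within a female. V1132_2 at -9.35 stood apart from its 3 sisters at -12.13, -12.10 and -13.40, and V1133_1 at -8.83 from its sisters at -12.63, -10.64 and -10.75.

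**Figure D1:**
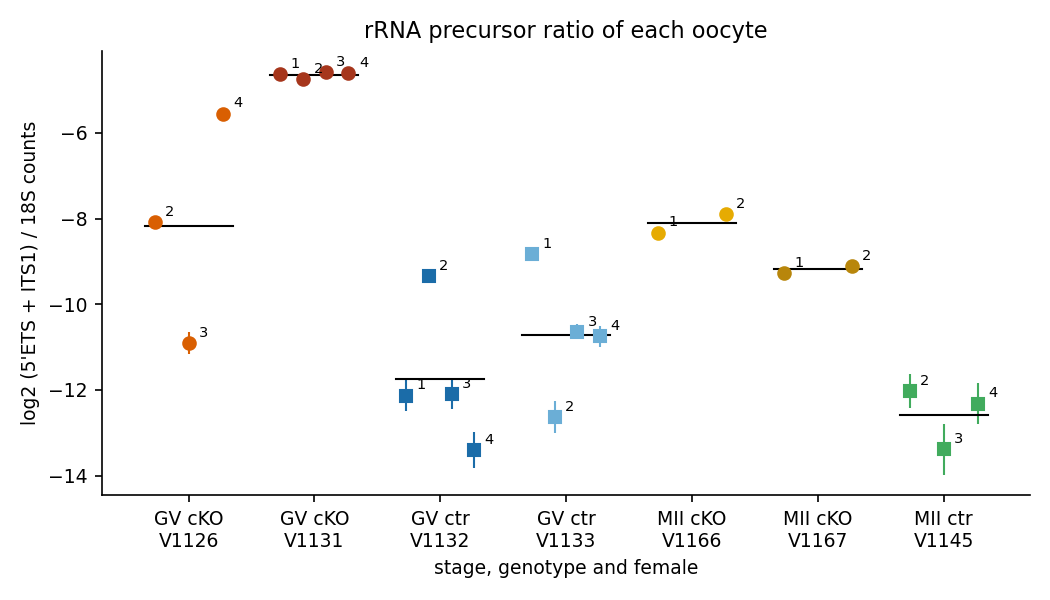
The log2 ratio of 5′ETS plus ITS1 to 18S counts (vertical axis) for each of 22 oocytes, by stage, genotype and female, with 95% Wilson counting intervals, the oocyte number beside each point and a black line at each female's mean. The 4 oocytes of V1131 sit between -4.75 and -4.58, while V1126_3 at -10.90 lies among the controls.

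Both spacers were high in V1131, whose oocytes had 8814 to 12281 counts of 5′ETS and 649 to 1146 of ITS1, against 40 to 486 and 5 to 163 in controls. V1126_4 had 5769 and 963, and V1126_2 had 1061 and 348, both above the controls. V1126_3, with 97 and 25, lay inside both control ranges. ITS2, the spacer between 5.8S and 28S, stood at 0.899 to 2.39 counts per 1000 counts of 28S in the knockouts at GV and 1.07 to 1.65 in their controls. The groups overlapped, with a log2 difference of 0.10 (exact permutation p = 0.606, 7 against 8 oocytes). Among the GV cKO oocytes, ITS2 was lowest in V1126_3 and highest in V1131_1.

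At MII the knockout oocytes had ratios of -8.33 and -7.89 (V1166) and -9.27 and -9.10 (V1167), all above the controls at -12.02, -13.39 and -12.32. The difference was 3.93 (exact permutation p = 0.0571, the smallest that 4 against 3 can give), and because the controls came from 1 female, genotype and female cannot be told apart. ITS2 went the other way. It was at 0.271 to 0.505 per 1000 of 28S in the 4 MII cKO oocytes and 1.20 to 1.43 in the 3 controls, without overlap and with a log2 difference of -1.88 (exact permutation p = 0.0571). With all spacers over all mature rRNA as the ratio, the MII difference was 0.17 (exact permutation p = 0.40).

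The matched RiboMinus libraries were then asked how much of the knockout's gene expression each GV oocyte showed. The genes that define the knockout came from other oocytes of other females, the polyA libraries at GV, where edgeR's quasi-likelihood test called 5908 of 14606 genes, or 40.4%, between cKO and control at an adjusted p under 0.05, with oocytes as replicates. On counts summed per female, 1 gene passed, with 3446 at an unadjusted p under 0.05 (edgeR). Of the calls over oocytes, 845 genes at least 2-fold higher and 422 at least 2-fold lower in cKO, with an average log2 CPM of at least 3, were tested in the RiboMinus libraries. The knockout signature of an oocyte is the mean log2 CPM of the 845 genes minus that of the 422 genes.

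The signature ordered the knockout oocytes nearly as the precursor ratio did. It was 1.32, 1.39, 1.72 and 1.21 in V1131, 0.74 in V1126_4, -1.59 in V1126_2 and -2.44 in V1126_3. The 8 controls lay between -2.89 and -2.06. V1126_3 was thus inside the control range on the ratio and on the signature as a whole, V1126_2 was just above it on both, and the remaining 5 were far outside it on both. The higher and the lower genes differed in V1126_3. Its mean log2 CPM of the 845 genes, 2.66, lay within the controls' 2.41 to 3.16, while that of the 422 genes, 5.10, lay below all 8 controls at 5.21 to 5.37. Across the 7 cKO oocytes Pearson's r was 0.978 and Spearman's rho 0.857, as a description of oocytes that share 2 females. With the female means removed r was 0.946, and without V1126_2 and V1126_3, the 2 farthest from the median ratio, it was 0.86 over 5 oocytes. Within V1131 alone the ratio spanned 0.17 and r was 0.325, so the relation rests on V1126. Across the 8 controls r was 0.53 and rho 0.619, and r was -0.11 without V1132_2 and V1133_1.

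**Figure D2:**
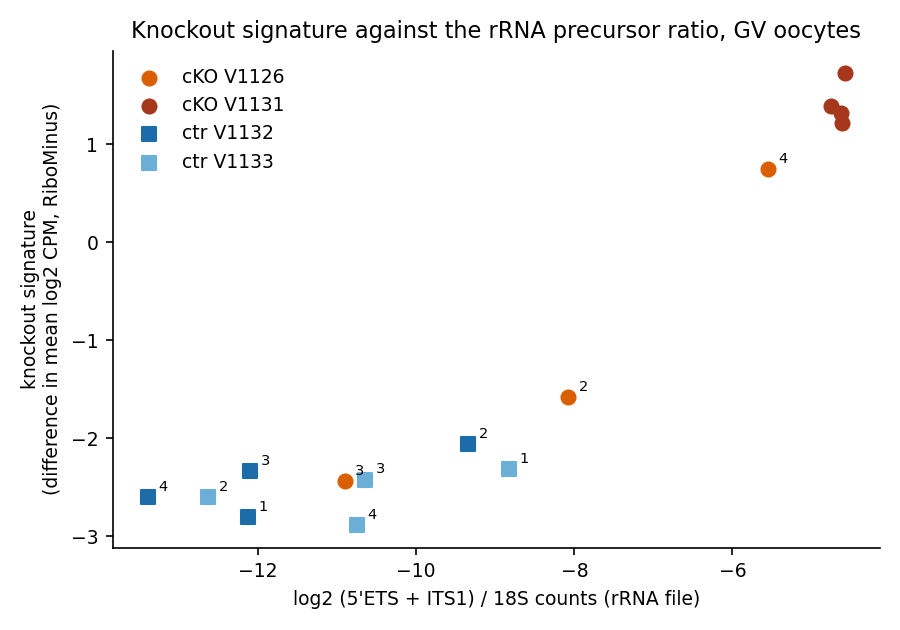
The knockout signature from the RiboMinus library (vertical axis, a difference in mean log2 CPM) against the precursor ratio from the rRNA file (horizontal axis, log2) for 15 GV oocytes, coloured by female, with circles for cKO and squares for control. V1126_3 lies at -2.44 among the controls, V1126_4 at 0.74 and the V1131 oocytes between 1.21 and 1.72.

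Counting genes 1 by 1 also placed V1126_3 lowest, then V1126_2, V1126_4 and the 4 oocytes of V1131, whose order among themselves differed from that of the signature. Of the 845 higher genes, 755 to 776 were above all 8 controls in each V1131 oocyte (89.3% to 91.8%). The number was 720 in V1126_4 (85.2%), 391 in V1126_2 (46.3%) and 85 in V1126_3 (10.1%). Over all 15347 genes tested, the share above every control was 28.9% to 30.5% in V1131, 26.9% in V1126_4, 15.7% in V1126_2 and 13.6% in V1126_3, where it exceeded that of the 845 genes. A control set against the other 7 had 5.09% to 27.6% of the 845 genes above them, and the 2 highest were V1132_2 and V1133_1, the controls with the highest precursor ratios. Of the 422 lower genes, 90.0% to 93.6% were below all controls in V1126_4 and V1131, 32.2% in V1126_2 and 22.7% in V1126_3. Controls set against the other 7 had 8.29% to 16.4%, so V1126_3 lay above all of them by this count. The shares of all genes below every control were 27.1% to 30.3%, 13.5% and 12.4%. For controls set against the other 7, the share of all genes below them was 7.25% to 18.1%.

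**Figure D3:**
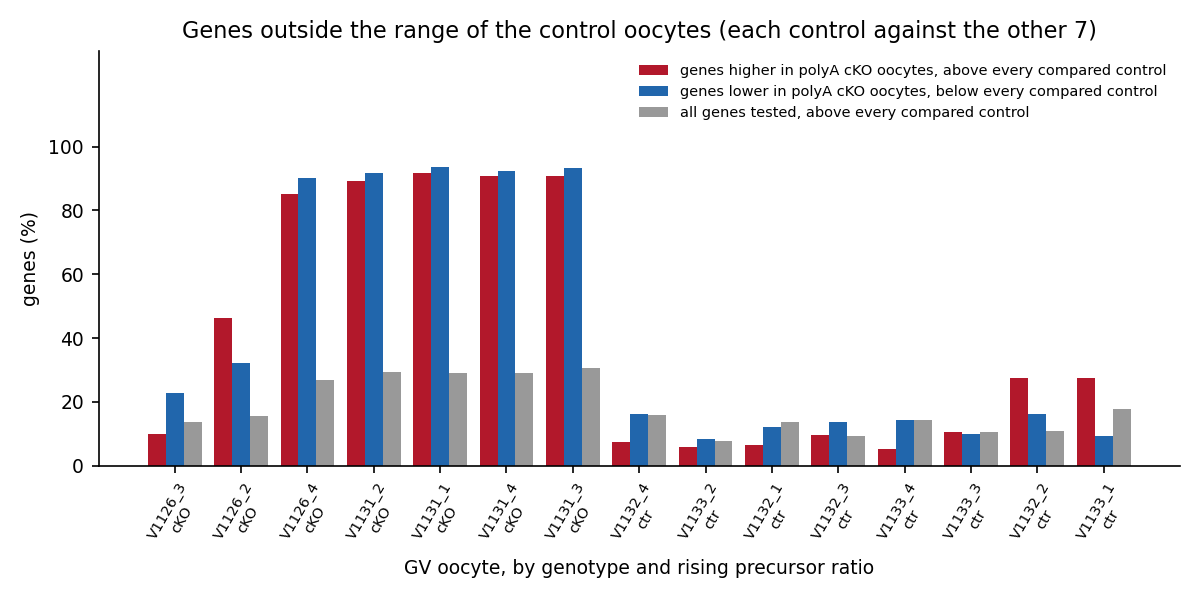
For each GV oocyte, ordered by genotype and rising precursor ratio, bars give the percent of the 845 higher genes above every control compared, of the 422 lower genes below every control, and of all 15347 genes above every control (8 controls for a cKO oocyte, the other 7 for a control). The red bar rises from 10.1% in V1126_3 through 46.3% in V1126_2 to 85.2% or more in the other 5 knockouts.

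The number of genes detected was also lowest in V1126_3 among the knockouts. At an equal depth of 12319658 counts, V1126_3 had 20350 genes with a count and V1126_2 had 22089, while the other 5 cKO oocytes had 22634 to 22906 and the controls 19921 to 21202. Its r with the ratio among knockouts was 0.954, but -0.296 without V1126_2 and V1126_3, so the relation rests on these 2 oocytes. Its part in the signature was not tested. Mitochondrial genes took 1.19% to 2.22% of counts in cKO oocytes and 1.02% to 3.97% in controls. Across the 7 cKO oocytes the r with the ratio was -0.607 for the mitochondrial share, 0.654 for the share of reads outside genes, 0.669 for the share of ambiguous reads and 0.263 for total gene counts (0.578 with female means removed and -0.82 without V1126_2 and V1126_3). Across the 8 controls it was 0.509, 0.759, -0.811 and 0.36. The part of these measures in the results was not tested.

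V1126_3 was a knockout by its transcript all the same. Exosc10 was at 4.22 CPM there, against 4.23 in V1131_4 and 8.15 in V1126_2, and at least 94.2 in controls. Mt1, a metallothionein that binds zinc and copper, was at 103 CPM in V1126_3, between 73.8 and 166 in the other cKO oocytes and at no more than 0.781 in the controls. Neither gene had a called slope on the ratio among knockouts (Exosc10 adjusted p = 0.32 and Mt1 adjusted p = 0.58 for the cKO slope described below, edgeR). Mt2 was at 0 to 0.852 CPM in all 15 GV oocytes and was not tested.

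Only a small part of the signature was outside the control range in every knockout. Of the 845 higher genes 41 were above all 8 controls in all 7 cKO oocytes, and 341 were so in the 6 oocytes other than V1126_3 (4.85% and 40.4%, beside 1.01% and 6.22% of all 15347 genes). Of the 422 lower genes 41 were below all controls in all 7, and 127 in the 6 (9.72% and 30.1%, beside 1.42% and 5.43% of all genes). Just 5 of these genes lay at least 2-fold beyond the controls in V1126_3, and the rest of this paragraph names them after their values were seen. Besides Mt1 and Exosc10 they were 2610017A05Rik (3.84 CPM, controls at most 1.56), Gm39321 (3.02 CPM, controls at least 8.86) and Hspa8, the constitutive heat shock protein 70 chaperone (27.5 CPM, controls 68.2 to 94.0). Exosc6, which encodes a ring subunit of the RNA exosome, was among the 41 higher genes, at 4.29 CPM in V1126_3, 4.78 to 14.2 in the other cKO oocytes and 1.65 to 3.33 in controls.

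For single genes the slope of log2 counts on the precursor ratio was fitted over the 15 GV oocytes with a term for each female, so that a slope uses only differences between sister oocytes and not the mean difference between genotypes. A slope of 1 means that the gene doubled where the ratio doubled. With 1 slope for all 4 females, 99 of 15347 genes passed an adjusted p under 0.05, or 0.645% (93 positive, 6 negative, edgeR quasi-likelihood test). With a slope for each genotype, 747 genes passed among cKO oocytes, or 4.87% (411 positive or 2.68%, 336 negative or 2.19%), and 1 passed among controls, or 0.00652%, with 795 genes at an unadjusted p under 0.05 and 20 calls by DESeq2. The difference between the 2 slopes passed for 10 genes, or 0.0652%.

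The cKO slope leans on V1126, since V1131 spans only 0.17. It called 1 gene without V1126_4, 365 without V1126_3 and 0 without female V1126, where 477 genes had an unadjusted p under 0.05 (edgeR). Of the genes described below, the cKO slopes of Gm26917, Mdn1, Bop1, Surf6, Las1l, Taf1c, Rpl17, Dkc1, Hist1h1e, Hist1h1d and Hist1h3a and the slope differences of Wls, Aff3, Zfp708 and Gm28557 changed sign without that female. The slope over all females called 2 genes without V1126_3, 30 without V1126_4, 24 without V1133_1, 41 without V1132_2 and 1 without female V1126. Without the female term, so that differences between females of a genotype also counted, the numbers were 3103 for all females, 4906 for cKO, 9 for controls and 620 for the difference. With library totals in place of TMM, 703 genes passed among cKO oocytes, with 498 positive and 205 negative.

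**Figure D4:**
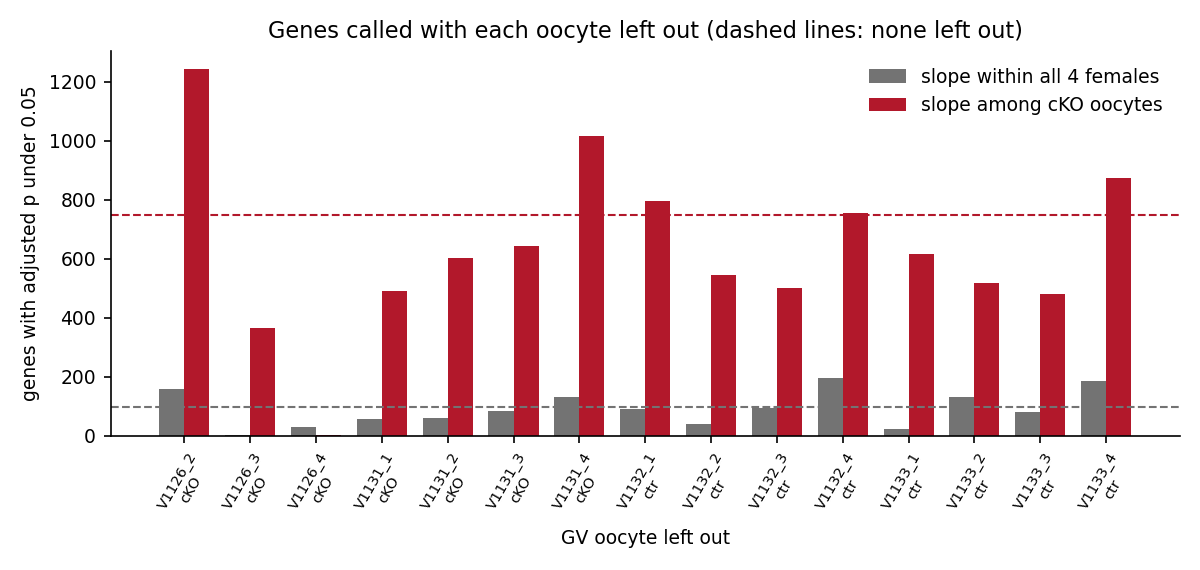
Genes with an adjusted p under 0.05 (vertical axis) when each GV oocyte (horizontal axis) is left out, for the slope within all 4 females (grey) and among cKO oocytes (red), with dashed lines at 99 and 747 for no oocyte left out. The red bar falls to 1 without V1126_4, and the grey bar to 2 without V1126_3.

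The genes that rose with the ratio were largely genes that are higher in knockouts elsewhere. Of the 93 positive genes, 88 were tested in the polyA libraries at GV, and 80 of them were higher in cKO there and 0 were lower. Over all 13939 genes tested in both, 21.2% were higher and 19.1% lower. Of the 336 genes that fell with the ratio among cKO oocytes, 334 were tested there and 262 were lower. The same held by list. Of the 845 higher genes, 204 rose and 0 fell with the ratio among cKO oocytes and their median slope was 0.28, where the median of all genes was -1.9e-06. Of the 422 lower genes, 83 fell and 0 rose, with a median slope of -0.26. In controls the medians of these lists were 0.099 and -0.0057, beside -0.0015 for all genes.

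Gm26917, a transcript next to an 18S rRNA copy, had the smallest p of all genes. Gm26917 (ENSMUSG00000097971), annotated as a long noncoding RNA at chr17:39843013-39846341 on the plus strand of GRCm38, ends 12 bases before Rn18s-rs5, an 18S rRNA pseudogene in RefSeq at chr17:39846354-39848202. It was at 441, 26.3 and 2077 CPM in V1126_2, V1126_3 and V1126_4 and at 3346, 4370, 4550 and 3230 CPM in V1131. The controls were at 23.9, 127, 16.4 and 9.39 CPM in V1132 and at 254, 16.4, 70.8 and 49.5 CPM in V1133. The highest control was thus below every knockout but V1126_3, and in each of the 2 control females the oocyte with the highest ratio had the highest value.

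The slope of Gm26917 was 1.07 (SE 0.06, adjusted p = 3.5e-08, edgeR) over all females, 1.17 (SE 0.09) among cKO oocytes and 0.99 (SE 0.07, adjusted p = 2.8e-06, edgeR) among controls, and it was the 1 gene called in controls. The difference between the slopes was 0.18 (SE 0.11, adjusted p = 0.59, edgeR). Whether its counts hold reads of the rRNA precursor was not tested, so it is no measure independent of the ratio. Gm42418 (ENSMUSG00000098178, chr17:39846958-39848788), which overlaps that 18S copy, had a slope of 0.013 (SE 0.05) and lay at 1653 to 2860 CPM in cKO oocytes and 2161 to 4555 CPM in controls.

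Rmrp, the RNA subunit of RNase MRP, rose with the ratio as well. RNase MRP is the ribonucleoprotein that cuts the precursor within ITS1. The annotation holds 2 Rmrp genes on the minus strand of chromosome 4 of GRCm38, a ribozyme of 271 bases (ENSMUSG00000088088, chr4:43492788-43493058) inside a lincRNA of 281 bases (ENSMUSG00000115420, chr4:43492783-43493063). The RNA is shown because both count rows rest on it. It is written as DNA from the GENCODE M21 transcripts, with the part that both genes hold in capitals.
Rmrp: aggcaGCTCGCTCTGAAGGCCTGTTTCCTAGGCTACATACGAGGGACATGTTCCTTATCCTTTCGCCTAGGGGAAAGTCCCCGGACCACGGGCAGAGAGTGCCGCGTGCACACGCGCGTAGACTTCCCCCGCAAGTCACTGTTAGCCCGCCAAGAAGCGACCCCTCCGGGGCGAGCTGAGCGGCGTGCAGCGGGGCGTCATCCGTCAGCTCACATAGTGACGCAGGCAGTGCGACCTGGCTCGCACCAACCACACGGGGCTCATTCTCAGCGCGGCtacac
As the capitals make up nearly all of the longer RNA, the 2 rows are not taken as independent genes. The lincRNA row held 1.08 to 1.48 times the counts of the ribozyme row in GV oocytes and up to 2.18 times at MII, and how reads were shared between the rows was not tested.

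For the ribozyme row, Rmrp was at 19.8, 3.34 and 96.4 CPM in V1126_2, V1126_3 and V1126_4 and at 107, 102, 103 and 122 CPM in V1131. The controls were at 5.27, 20.3, 8.86 and 3.25 CPM in V1132 and at 34.6, 2.59, 13.8 and 2.22 CPM in V1133. V1126_3 fell near the lowest controls, V1126_2 inside the control range and the other 5 knockouts above every control. The slope was 0.85 (SE 0.10, adjusted p = 0.00058, edgeR) over all females and 0.90 (SE 0.14, adjusted p = 0.0071) among cKO oocytes. Among controls it was 0.81 (SE 0.13, adjusted p = 0.074), which did not pass. The lincRNA row gave 0.88 (SE 0.11) over all females. At MII the ribozyme row was at 48.8 to 236 CPM in cKO oocytes, highest in V1166_2, which had the highest MII ratio, and at 2.37 to 8.72 CPM in controls.

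Ccdc107, a coding gene that overlaps Rmrp on the opposite strand (chr4:43492900-43495921, plus strand), had a slope of 0.36 (SE 0.06, adjusted p = 0.017, edgeR) over all females, and was looked up after the Rmrp values were seen. The strand setting of the counts is not given in the sources used here, so reads of the pair cannot be told apart. Of the 13 RNase P and MRP genes tested, the 2 Rmrp rows passed over all females and among cKO oocytes, and the 11 others passed in neither, beside 0.645% and 4.87% of all genes.

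**Figure D5:**
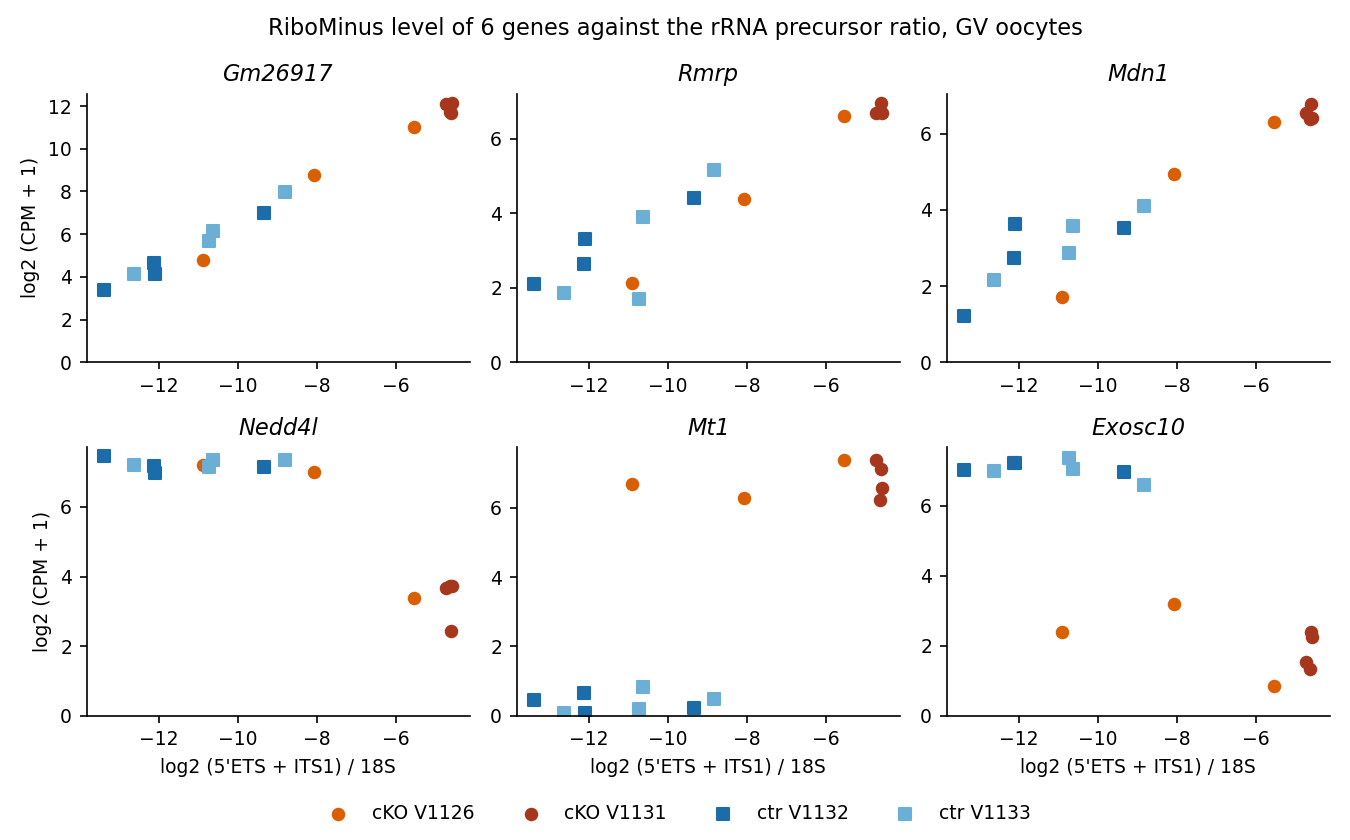
RiboMinus level as log2 of CPM plus 1 (vertical axes, each from 0) against the precursor ratio (horizontal axes, log2) for 6 genes in 15 GV oocytes, coloured by female, with circles for cKO and squares for control. Gm26917, Rmrp (ribozyme row) and Mdn1 rise along the ratio among the knockouts, Nedd4l is low in the 5 knockouts with the highest ratios, and Mt1 and Exosc10 separate all 7 knockouts from all 8 controls.

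Besides the Rmrp rows, the naming rule gave 4 coding genes with the largest positive slopes over all females. Cdc42ep4, an effector of the small GTPase CDC42, was at 6.82, 0.378 and 22.9 CPM in V1126_2, V1126_3 and V1126_4, at 20.3 to 50.8 CPM in V1131 and at 0.0683 to 3.03 CPM in controls, with a slope of 1.03 (SE 0.13, adjusted p = 0.0017, edgeR). Fam174b, which encodes a membrane protein, was at 2.67, 0.378 and 20.2 CPM in V1126, at 20.6 to 37.8 CPM in V1131 and at 0 to 2.57 CPM in controls (slope 0.79, SE 0.15). In both genes V1126_3 lay with the controls. Mef2a, a MADS-box transcription factor, had a slope of 0.61 (SE 0.12) and the zinc finger gene Zfp707 one of 0.61 (SE 0.12).

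The 4 largest falls over all females that met the naming rule were smaller. Fkbp5, a co-chaperone of steroid receptors, was at 247, 434 and 138 CPM in V1126_2, V1126_3 and V1126_4, at 66.2 to 86.2 CPM in V1131 and at 199 to 355 CPM in controls, so V1126_3 was above every control. Its slope was -0.22 (SE 0.04, adjusted p = 0.012, edgeR). Rin2, a guanine exchange factor for RAB5, had a slope of -0.37 (SE 0.07), Garem1 -0.22 (SE 0.05) and Rccd1 -0.18 (SE 0.03).

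Among cKO oocytes the 6 largest rises under the naming rule were Gpr83, Tcf24, Clp1, Krt73, Fam174b and Cdc42ep4. Gpr83, an orphan G protein-coupled receptor, was at 1.19, 0 and 16.4 CPM in V1126_2, V1126_3 and V1126_4, at 14.1 to 44.8 CPM in V1131 and at 0 to 1.32 CPM in controls (cKO slope 1.64, SE 0.29, adjusted p = 0.0093, edgeR). Tcf24, a basic helix-loop-helix factor, was at 1.55, 0.063 and 18.6 CPM in V1126 and 21.9 to 26.7 CPM in V1131, with controls at 0 to 1.02 CPM (cKO slope 1.45, SE 0.16). Clp1, a polynucleotide kinase of pre-mRNA 3′-end cleavage, had a cKO slope of 1.243 (SE 0.31). It was at 4.29, 0 and 15.2 CPM in V1126_2, V1126_3 and V1126_4, so a 0 enters this slope. In V1131 it was at 20.6 to 23.8 CPM and in controls at 0 to 3.28 CPM. Both values of Gpr83 and Tcf24 in V1126_2 and V1126_3 lay near the controls, and V1126_4 lay with or near V1131.

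The 6 largest falls among cKO oocytes under that rule were Utrn, Auts2, Nedd4l, Cd200, Mrc1 and Pard6g, and in each of them the 5 knockouts with the highest ratios were below every control. Nedd4l, a HECT-type ubiquitin ligase, was at 128 and 146 CPM in V1126_2 and V1126_3, inside or at the edge of the control range of 126 to 176 CPM. It was at 9.45 CPM in V1126_4 and 4.37 to 12.4 CPM in V1131 (cKO slope -0.70, SE 0.18, adjusted p = 0.040, edgeR). Utrn, which encodes the dystrophin relative utrophin, was at 47.2 and 72.1 CPM in V1126_2 and V1126_3, at 0.144 to 1.85 CPM in the other 5 knockouts and at 40.4 to 62.5 CPM in controls (cKO slope -0.96, SE 0.24). Pard6g, a cell polarity scaffold, was at 38.7 and 59.9 CPM in these 2 oocytes and at 1.62 to 6.58 CPM in the other 5, with controls at 42.1 to 67.9 CPM (cKO slope -0.58, SE 0.13).

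Auts2 was lowest in V1126_4, at 18.8, 47.3 and 2.66 CPM in V1126_2, V1126_3 and V1126_4 and at 13.2 to 23.8 CPM in V1131, with controls at 32.7 to 62.4 CPM (cKO slope -0.76, SE 0.11). Flt1, a receptor for vascular endothelial growth factor, had 63.6 and 48.3 CPM in V1126_2 and V1126_3 and 0.941 to 2.88 CPM in the other 5 knockouts, with controls at 19.997 to 64.8 CPM. Its cKO slope of -0.82 (SE 0.32, adjusted p = 0.14, edgeR) did not pass.

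The slopes themselves differed between the genotypes for 10 genes. Of the 9 that the naming rule covers, Tcf24 (cKO minus control slope 2.3, SE 0.27, adjusted p = 0.0028, edgeR), Krt73 (1.36, SE 0.20), Syt14 (0.90), Wls (0.86), Cpeb2 (0.79) and Neto2 (0.63) had the larger slope in cKO. Cpeb2, a cytoplasmic polyadenylation element binding protein, was at 18.1, 6.87 and 79.2 CPM in V1126_2, V1126_3 and V1126_4 and at 111 to 151 CPM in V1131, with controls at 3.73 to 8.94 CPM. The slopes of Tcf24 were 1.45 in cKO and -0.84 (SE 0.21) in controls. Its control slope rests on 0 to 15 counts per control oocyte, so near-zero counts enter this difference. Aff3 (-0.75), a nuclear factor of the AF4 family, and Zfp708 (-0.57) had the lower slope. Aff3 was at 30.4 and 58.1 CPM in V1126_2 and V1126_3, at 3.41 to 6.43 CPM in the other 5 knockouts and at 32.4 to 59.5 CPM in controls. Gm28557 (-0.57) had nearly the same counts as Zfp708, and reads of the pair may not be separable. For Wls, Aff3, Zfp708 and Gm28557 the correlation with the ratio had opposite signs in V1126 and V1131, and for Krt73 in V1132 and V1133. Without female V1126, 0 genes passed the test of the difference, with 475 at an unadjusted p under 0.05 (edgeR).

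The lists of factors that build ribosomes follow by their roles. Of 50 genes tested for the large subunit and ITS2 processing, 4 rose over all females and 0 fell, beside 0.645% of all genes. Among cKO oocytes 5 rose and 3 fell, beside 4.87%. The median slopes of the list, -0.012 over all females and -0.028 among cKO oocytes, were close to the all-gene medians of -0.0014 and -1.9e-06. Mdn1, the giant AAA ATPase (midasin) that strips assembly factors from the pre-60S particle, was at 29.9, 2.27 and 77.6 CPM in V1126_2, V1126_3 and V1126_4. It was at 82.9 to 109 CPM in V1131 and at 1.33 to 16.3 CPM in controls. Its slope was 0.72 (SE 0.12, adjusted p = 0.014, edgeR) over all females and 0.92 (SE 0.16) among cKO oocytes.

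Bop1, a subunit of the PeBoW complex, had a slope of 0.27 (SE 0.05) over all females, and Nop2, an rRNA methyltransferase, one of 0.32 (SE 0.07). For Isg20l2, an exonuclease that trims the 5.8S precursor, the slope over all females was 0.83 (SE 0.17). Isg20l2 had 7 counts in V1126_3 and 0 to 39 in controls, so near-zero counts enter this slope. Its average log2 CPM was 1.97, and its cKO slope did not pass (adjusted p = 0.14, edgeR). Surf6 and Rrs1, nucleolar assembly factors, rose among cKO oocytes, with slopes of 0.21 and 0.29. Nucleolin (Ncl, slope -0.17), the GTPase Gnl2 (-0.56) and the ITS2 endonuclease gene Las1l (-0.20) fell among cKO oocytes. Gnl2 was at 164 and 185 CPM in V1126_2 and V1126_3, at 21.6 to 50.6 CPM in the other 5 knockouts and at 199 to 244 CPM in controls.

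In the small-subunit processome, the particle that handles the 5′ETS and 18S, 1 of 49 genes rose among cKO oocytes (Imp3, slope 0.38, SE 0.10) and 1 fell (Utp15, -0.21, SE 0.06), beside 4.87% of all genes called. The 13 factors of late 40S maturation had no called slope (edgeR, with 1 at an unadjusted p under 0.05 over all females and 3 among cKO oocytes, where DESeq2 and voom called 1 each), from -0.089 for the kinase gene Riok1 to 0.15 for the endonuclease gene Nob1 over all females. Rnu3a, the U3 small nucleolar RNA that pairs with the 5′ETS, was at 5.06, 2.96 and 18.9 CPM in V1126_2, V1126_3 and V1126_4, at 18.05 to 26.3 CPM in V1131 and at 3.33 to 17.4 CPM in controls. Its cKO slope was 0.50 (SE 0.11, adjusted p = 0.022, edgeR) for each of 2 gene rows with almost identical counts. Of 49 snoRNA and scaRNA genes, 0 passed in any slope by edgeR, DESeq2 or voom, with 2 at an unadjusted p under 0.05 among cKO oocytes. Of 22 snoRNA host genes, 2 fell among cKO oocytes, beside 2.19% of all genes. These were Ncl and Dkc1, the pseudouridine synthase gene of box H/ACA particles (slope -0.33, SE 0.06). The median cKO slope of the list was 0.088, and 14 of its 22 slopes were positive.

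In the RNA polymerase I machinery, 1 of 20 genes rose over all females, beside 0.645% of all genes called, Taf1c, a subunit of the promoter selectivity factor SL1, with a slope of 0.405 (SE 0.08, adjusted p = 0.026, edgeR). It was at 6.04, 1.89 and 11.7 CPM in V1126_2, V1126_3 and V1126_4, 18.9 to 41.2 CPM in V1131 and 0.888 to 4.55 CPM in controls. Among cKO oocytes Taf1c and Ubtf (0.47), the upstream binding factor, rose, and Taf1a (-0.21) and Polr1e (-0.30) fell, beside 4.87% of all genes called. Without female V1126 the cKO slope of Taf1c was -2.06. Among the cytosolic ribosomal protein genes, Rpl41 rose (cKO slope 0.30, SE 0.08) and Rpl17 fell (-0.46, SE 0.12) among cKO oocytes, though without female V1126 the slope of Rpl17 was 2.12. Rpl17 was at 122 and 128 CPM in V1126_2 and V1126_3, at 12.7 to 22.1 CPM in the other 5 knockouts and at 95.04 to 169 CPM in controls.

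No gene of the exosome had a called slope by edgeR. Of 24 subunits and cofactors tested, 0 passed in any of the 4 slope tests by edgeR, with 6 at an unadjusted p under 0.05 over all females and 4 among cKO oocytes. DESeq2 called 1 over all females and 2 among cKO oocytes, and voom called 1 among cKO oocytes. By genotype 3 were higher and 5 lower in cKO than in control among the same oocytes, where 5774 of 15347 genes, or 37.6%, passed. The largest slope over all females was 0.50 (SE 0.13, adjusted p = 0.085, edgeR) for C1d, a cofactor of EXOSC10, and the lowest was -0.15 (SE 0.11) for Exosc10.

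Of the lists outside ribosome production, replication-dependent histones had 4 of 39 genes that rose among cKO oocytes, Hist1h1e, Hist1h1d, Hist1h2be and Hist1h3a, and none that fell, beside 2.68% of all genes that rose. Without V1126_4 the slopes of Hist1h1e and Hist1h1d were -0.60 and -0.028. Their median cKO slope was 0.26 and 34 of 39 slopes were positive. Histone paralogs share sequence, so single members are uncertain. Hist1h1e, a linker histone, was at 5.83 and 18.7 CPM in V1126_2 and V1126_3, 309 CPM in V1126_4, 49.2 to 345 CPM in V1131 and 2.81 to 7.03 CPM in controls. V1126_3 lay above the controls and V1126_2 did not, against the order of the ratio.

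Of 22 oocyte identity genes, 2 rose among cKO oocytes, Padi6, part of the subcortical maternal complex (slope 0.23, SE 0.05), and the transcription factor gene Lhx8 (0.16, SE 0.04). Over all genes tested, 2.68% rose among cKO oocytes. Padi6 was at 656 and 584 CPM in V1126_2 and V1126_3, at 1426 to 1879 CPM in the other 5 knockouts and at 658 to 1101 CPM in controls. Of 16 zinc genes tested, 1 rose over all females and among cKO oocytes, the zinc transporter gene Slc30a7 (slopes 0.45, SE 0.08, and 0.59, SE 0.11), beside 0.645% and 4.87% of all genes called. Atm, the DNA damage kinase gene, was the one called of 24 genes of the p53 and nucleolar stress list among cKO oocytes, a share no larger than the 4.87% of all genes (cKO slope 0.29, SE 0.08, adjusted p = 0.0499, edgeR). Of 26 genes of meiotic resumption and the lamina, 0 passed by edgeR, with 6 at an unadjusted p under 0.05 over all females, while DESeq2 called 4 and voom 3 among cKO oocytes. The slopes ran from -0.17 for Gpr12 to 0.22 for Wee1 over all females.

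Mitochondrially encoded genes had no called slope among 21 tested by edgeR, DESeq2 or voom. At an unadjusted p under 0.05 there were 0 over all females and 1 among cKO oocytes. All 21 slopes were positive in controls (median 0.14) and 16 of 21 were negative among cKO oocytes (median -0.12), and 18 of the 21 were lower in cKO than in control (median log2 fold change -1.26), beside 2527 of all 15347 genes. These genotype calls take oocytes as replicates, and on counts summed per female 3 genes in all passed, with 4859 at an unadjusted p under 0.05 (edgeR). Of 12 somatic marker genes tested, 0 passed in any slope by edgeR, with 2 at an unadjusted p under 0.05 over all females, while DESeq2 called 1 among cKO oocytes. Their slopes ran from -0.61 for Fshr to 0.25 for Kitl over all females. The next control slopes after Gm26917 and Rmrp, named by their unadjusted p and not passing, were positive for Rpusd2 and Zfp292 and negative for Ubxn6, Frmd8, 5430405H02Rik and Helz, as well as for Tcf24.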

How the data were processed

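Both kinds of library came from single oocytes and the Ovation Solo system, per the labels' protocols, and random hexamers primed the RiboMinus cDNA. The authors deposited raw counts, 1 file per library, of 55573 Ensembl genes or of 7 segments of the rRNA precursor. The segments were named here as spacers and mature rRNAs by their order and length along it. The submitters' processing notes name cutadapt 2.5, FastQC 0.11.8, STAR 2.7.2a, SAMtools 1.9, HTSeq 0.9.1, R 3.5.1, DESeq2 1.24.0 and the build mm10, with no role or order. Strand and duplicate handling, and which reads near the repeated rRNA locus were kept, are not given in the sources used here, and this bears on Gm26917, Gm42418 and Rmrp. Reads outside genes took 8.34% to 12.4% of the GV and 8.43% to 12.0% of the MII gene files, and these lines were left out of library sizes.

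Gene slopes on the precursor ratio and genotype contrasts were fitted with edgeR 4.0.16 (R 4.3.3; filterByExpr, TMM, quasi-likelihood tests with Benjamini-Hochberg adjustment, all two-sided). Slopes used the 15 GV oocytes with a term for each female, which pairs sister oocytes by the female number in the labels and left 10 residual degrees of freedom. Oocytes served as replicates, so p-values measure the spread between oocytes of 4 females. Ratios were compared by exact permutation tests (scipy 1.17.1, numpy 2.4.6, pandas 2.3.3, Python 3.11.15), and figures used matplotlib 3.10.9. Intervals are 95% Wilson intervals. The fit was tested on simulated data for the slope within GV females over 15347 genes: 98% of 100 slopes of 0.5 and 21% of 100 slopes of 0.25 were recovered, with 5 false calls. The simulation gave every gene the same dispersion and no female effects, and changed only genes above a minimum mean count. Its rates need not hold for the real counts, where the spread differs between genes.

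Named genes are, per slope test, the 6 largest slopes in each direction among called genes with a symbol, an average of log2 CPM no lower than 3 and the same sign of correlation in every female used, a condition that was not set for the slope difference. Where fewer than 3 qualified, the 5 smallest unadjusted p were taken. Exosc10, Mt1, Mt2, Flt1, Gm26917 and Gm42418 are always named, and listed genes where called, or a list's 2 extremes. The members, lists and tests were chosen with earlier results of these data known. One called gene of the lists is not reported here. Of the listed symbols 3 were found under a synonym and 7 had no gene in the files. Alternatives were DESeq2 1.42.0, limma 3.58.1 voom, other scalings, filters and ratios, no female term, and leaving out each oocyte and each female. Ranks of the ratio, each GV oocyte left out of the ratio comparison and each cKO female left out of the signature were added after seeing the data. The spike-in RNA named in the labels was not analysed here, so changes are relative to the rest of a library.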

Additional observations from a re-analysis of the deposited data

Results flagged for a closer look

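Of 44 sets of values checked, each of 1 measure in 1 group of 4 to 8 oocytes, 8 held an oocyte far from the others, where chance gives about 1 in 20. Among GV cKO oocytes, V1126_3 had the fewest genes at an equal depth, 20350 against a median of 22721, and V1131_4 the highest 28S over 18S, 3.09 against 2.36. Among GV controls, V1132_4 had the highest Gm42418, 4555 CPM against 2538. Among MII cKO oocytes, V1166_2 had the highest mitochondrial share, 6.69% against 2.68%, and the highest Rmrp, 236 against 68.7 CPM in the ribozyme row and 320 against 106 CPM in the lincRNA row. V1166_1 had the most gene counts, 62675760, and V1167_2 the most rRNA counts, 1344559. The oocytes V1166_2 and V1166_1 enter no slope, and results without V1126_3, V1131_4 and V1132_4 stand with the leave-one-out values.

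The slope on the precursor ratio differed between cKO and control oocytes, by edgeR's test of the difference with an adjusted p under 0.05, for 10 genes. The cKO minus control slope was 2.3 for Tcf24, 2.04 for Trim67, 1.36 for Krt73, 0.90 for Syt14, 0.86 for Wls, 0.79 for Cpeb2, 0.63 for Neto2, -0.57 for Gm28557, -0.57 for Zfp708 and -0.75 for Aff3. Near-zero counts enter these values for Tcf24, with 0 to 15 counts per control oocyte, and for Trim67, with 1 and 0 counts in V1126_2 and V1126_3. Trim67 had an average level under the minimum for named genes, at 0 to 5.01 CPM in the GV cKO oocytes and 0.837 to 2.25 in the controls.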

How the results depend on the processing

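The counts of called slopes moved widely with the processing, over all females (99), among cKO oocytes (747), among controls (1) and for the difference (10), in that order below. DESeq2 gave 641, 1822, 20 and 156. Voom gave 171, 1231, 1 and 6. Library totals gave 155, 703, 1 and 9. Without a filter on low counts there were 872, 1516, 154 and 296. Without the replicate block (no female term) there were 3103, 4906, 9 and 620. With ITS1 alone over 18S there were 17, 310, 1 and 0, with 5′ETS alone 118, 830, 2 and 9, and with all spacers over mature rRNA 1193, 1012, 6 and 0. Ranks of the ratio, added later, gave 9, 0, 0 and 0, with 1613, 1971, 724 and 786 at an unadjusted p under 0.05 (edgeR). DESeq2 size factors and a mean of at least 50 counts kept all 4 counts within 1.5 times.

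Without female V1126 the counts were 1, 0, 1 and 0, without V1131 21, 670, 1 and 0, without V1132 115, 340, 1 and 1, and without V1133 58, 403, 1 and 0. Leaving out each oocyte gave 2 to 196 over all females, 1 to 1243 among cKO oocytes, 1 to 3 among controls and 0 to 283 for the difference. The extremes among cKO oocytes came without V1126_4 and V1126_2. Of the 747 cKO calls, 1 was shared without V1126_4 and 139 without V1126_3, with the sign kept in 728 of 745 and in 747 of 747. Without female V1126, 0 were shared and 400 of 747 kept their sign.

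For named genes, 17 of 2248 refits turned a called slope, all of them without V1126 or V1126_4. Without female V1126 the cKO slopes were -0.65 for Gm26917, -0.10 for Mdn1, -0.97 for Bop1, -0.54 for Surf6, 0.10 for Las1l, -2.06 for Taf1c, 2.12 for Rpl17, 1.244 for Dkc1, -3.08 for Hist1h1e, -3.44 for Hist1h1d and -3.21 for Hist1h3a. The slope differences there were -1.26 for Wls, 1.56 for Aff3, 1.12 for Zfp708 and 0.56 for Gm28557. Leaving out each oocyte moved the cKO slope of Hist1h1e from -0.60 (without V1126_4) to 2.21 (without V1126_3) and that of Hist1h1d from -0.028 to 0.91. A further 603 refits kept the sign and no longer passed, and 18 newly passed.

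The GV ratio difference of 5.07 was 4.82 over female means (exact permutation p = 0.333) and 3.05 without V1131 (p = 0.0727), and leaving out each oocyte gave 4.76 to 5.86. At MII, leaving out each oocyte gave 3.52 to 4.21. The correlation of the signature was 0.976 to 0.994 with each cKO oocyte left out, 0.946 with the replicate block (female means removed), and 0.325 without V1126. On counts summed per female, 3 genes passed the RiboMinus and 1 the polyA genotype contrast, with 4859 and 3446 at an unadjusted p under 0.05 (edgeR), so the signature rests on calls over oocytes. With library totals the split of higher and lower calls was 3931 and 1995 in place of 3247 and 2527 (RiboMinus), and 4380 and 1853 in place of 3207 and 2701 (polyA). Low ratios are limited by counts of 22 to 70 spacer reads in the lowest controls.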
